A study of Mus musculus with 9 samples.

Results

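The genes described here are the nuclear receptors PXR (pregnane X receptor, gene *Nr1i2*) and CAR (constitutive androstane receptor, gene *Nr1i3*) and 8 cytochrome P450 genes of the Cyp2 and Cyp3 families: *Cyp3a11*, *Cyp3a13*, *Cyp3a25*, *Cyp2b10*, *Cyp2c29*, *Cyp2c55*, *Cyp2c65* and *Cyp2c66*. They are 10 of 54838 genes in the files, and all 10 were among the 12702 genes tested. They were chosen by their values: several of the P450 genes were higher with Nec-1, in organoids given EtOH and in organoids given 4-OHT. The levels with and without Nec-1 are therefore given as a description, with no test, and tests are given for 4-OHT against EtOH.

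The donors of the intestinal organoids were *Vil-CreERT2*;*Mettl3* fl/fl mice labelled C57BL/6, and the study used males of 2 to 4 months of age. Organoids are epithelial cultures that form crypt-like buds. The villin promoter drives a Cre recombinase in the intestinal epithelium that 4-hydroxytamoxifen (4-OHT) activates, which removes the floxed part of *Mettl3*, the gene of an RNA methyltransferase. All groups carried the Cre and the floxed alleles. Organoids received EtOH or 500 nM 4-OHT for 2 days, with DMSO or with necrostatin-1 (Nec-1), an inhibitor of the kinase RIPK1, for 5 days. The concentration of Nec-1 is given as 5 µM in a legend and 10 µM in the methods. These 4 groups are called EtOH DMSO (2 libraries), EtOH Nec-1 (2 libraries), 4-OHT DMSO (2 libraries) and 4-OHT Nec-1 (1 library). No group without Cre received 4-OHT, so 4-OHT itself and the deletion cannot be told apart. The study's general statement on biological replicates gives a larger number than these groups hold, and no label says that libraries of a group came from separate cultures, so p-values measure only the spread between these libraries, which may be technical.

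Levels are FPKM, fragments scaled for transcript length and for the mapped fragments of the library, as the authors deposited them. Each library summed to between 450207 and 498712 FPKM, with 11559 to 12038 genes at 1 FPKM or above. Fragment counts and the depth behind single values are unknown. Markers of the intestinal epithelium were present in every library (7 of 7, summed FPKM 2515 to 3520), while 7 stromal markers summed to 0.555 to 1.26 FPKM. The 7 immune cell markers summed to 3.44 to 10.2 FPKM, with the leukocyte gene *Ptprc* at 0.0497 or below. The macrophage gene *Cd68* was at 0.774 and 2.01 FPKM under EtOH DMSO and 5.69 and 7.72 under 4-OHT DMSO, and *Lyz2* did not exceed 2.63. *Mettl3* was at 2.70 and 2.71 FPKM under EtOH DMSO, 2.41 and 2.47 under EtOH Nec-1, 3.72 and 4.14 under 4-OHT DMSO and 3.36 under 4-OHT Nec-1. It was thus higher, not lower, in the libraries labelled 4-OHT, by 0.41 on the log2(FPKM + 1) scale between the DMSO groups (SE 0.098, limma with Benjamini-Hochberg adjustment, adjusted p = 0.0231). That call was lost with median centring (limma adjusted p = 0.0796) and without either EtOH DMSO library (0.0686 and 0.0640), with the same direction. The values cover the whole gene and do not show the excision, so every direction between EtOH and 4-OHT rests on the labels. In bulk samples, fewer cells of a type and less RNA per cell cannot be told apart.

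PXR and CAR are sensors of foreign compounds, bile acids and steroids. Each binds DNA as a pair with the retinoid X receptor, at repeats of a short half-site in the control regions of its target genes. PXR is best known for the induction of Cyp3a genes and CAR for that of Cyp2b genes, and both act on Cyp2c genes, conjugating enzymes and drug transporters. In the small intestine these enzymes are found mainly in enterocytes, where they oxidise drugs and lipids before they reach the blood.

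Most of the genes lie in 2 clusters (GRCm38.p6 coordinates from RefSeq). *Cyp2c55* (chr19:39006940-39042690), *Cyp2c65* (chr19:39061006-39093948), *Cyp2c66* (chr19:39113898-39186756) and *Cyp2c29* (chr19:39287044-39330713) span 324 kb on chromosome 19. Of the other 13 Cyp2c genes on that chromosome, 3 reached 1 FPKM in any library: *Cyp2c68*, *Cyp2c70* and the pseudogene *Cyp2c52-ps*, of which the last was named after its values were seen. The remaining 10 did not exceed 0.689 FPKM. *Cyp3a11* (chr5:145854607-145879854) and *Cyp3a25* (chr5:145977192-146009644) span 155 kb on chromosome 5, and *Cyp3a13* (chr5:137892933-137925610) lies 7.93 Mb from *Cyp3a11*. None of the other 8 Cyp3a genes reached 1 FPKM, with a highest value of 0.952. *Cyp2b10* is at chr7:25897658-25926624, *Nr1i2* at chr16:38248349-38294849 and *Nr1i3* at chr1:171213934-171218845. Close paralogs share fragments that the authors' quantification could have split between them, so single values of the Cyp2c and Cyp3a genes are uncertain to that extent.

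The 250 bases before the transcript start listed by RefSeq for 4 genes are printed below because *Cyp3a11* and *Cyp3a25* are cluster neighbours of which 1 fell with 4-OHT and the other was not called, while *Cyp2c65* and *Cyp2c66* are close paralogs with nearly the same pattern over the libraries. The sequences are RefSeq promoters of GRCm38.p6, 5′ to 3′ on the strand of the gene. The table has 2 starts for *Cyp3a25*, and the window shown lies partly inside the gene interval given above. The windows counted for *Nr1i2*, *Nr1i3*, *Cyp2c29* and *Cyp2c55* do so in part and that for *Cyp3a13* wholly. Capitals mark the receptor half-sites AGGTCA and AGTTCA, the HNF4A letters CAAAGTCCA (HNF4A is a nuclear receptor of gut and liver epithelium) and TATAAA, each on either strand.
*Cyp3a11*, chr5:145879855-145880104, minus strand: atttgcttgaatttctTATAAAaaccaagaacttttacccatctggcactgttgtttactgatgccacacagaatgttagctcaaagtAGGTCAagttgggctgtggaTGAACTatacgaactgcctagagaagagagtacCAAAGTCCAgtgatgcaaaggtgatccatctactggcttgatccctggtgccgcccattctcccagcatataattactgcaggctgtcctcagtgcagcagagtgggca
*Cyp3a25*, chr5:146009619-146009868, minus strand: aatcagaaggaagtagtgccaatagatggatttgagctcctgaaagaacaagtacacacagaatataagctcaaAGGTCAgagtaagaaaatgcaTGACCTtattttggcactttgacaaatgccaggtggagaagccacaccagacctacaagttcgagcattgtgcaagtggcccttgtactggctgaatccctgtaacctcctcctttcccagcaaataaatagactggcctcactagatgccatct
*Cyp2c65*, chr19:39060756-39061005, plus strand: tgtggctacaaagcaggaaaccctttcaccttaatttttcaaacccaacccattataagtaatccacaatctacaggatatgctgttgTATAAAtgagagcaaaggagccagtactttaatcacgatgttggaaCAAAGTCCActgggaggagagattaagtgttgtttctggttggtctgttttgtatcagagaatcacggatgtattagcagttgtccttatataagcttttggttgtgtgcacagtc
*Cyp2c66*, chr19:39113648-39113897, plus strand: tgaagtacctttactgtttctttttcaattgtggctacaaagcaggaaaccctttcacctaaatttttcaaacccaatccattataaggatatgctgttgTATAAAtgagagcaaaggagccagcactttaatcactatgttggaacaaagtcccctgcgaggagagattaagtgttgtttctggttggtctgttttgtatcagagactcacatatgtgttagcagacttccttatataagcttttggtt

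Matches were counted over these 250 bases in all 10 genes and in all 32851 promoters of the table. At least 1 half-site was in 3 of the 10 (2 each in *Cyp3a11* and *Cyp3a25* and 1 in *Cyp2c29*) and in 24.2% of all promoters. Pairs of half-sites as direct repeats spaced by 3, 4 or 5 bases, or as everted repeats spaced by 6, were in none of the 10 and in 4, 8, 11 and 3 promoters of the table. The HNF4A letters were in *Cyp3a11* and *Cyp2c65* and in 0.384% of all promoters. In the alignment with *Cyp2c65*, the *Cyp2c66* promoter differs from these 9 letters by 1 base, A9C, with the base of *Cyp2c65* first and positions counted from 1 at the 5′ end of the letters. Over all 250 bases, 208 of 279 aligned columns of this pair were identical (74.6%), the highest share among the 45 pairs of promoters, and 55.9% were for *Cyp3a11* and *Cyp3a25*. TATAAA was in 5 of the 10 and 12.4% of all promoters. GCGTG, the core of the element of the aryl hydrocarbon receptor, was in *Cyp2b10* alone and in 28.2% of all promoters. A match is a run of letters and not a bound site, and no match says only that these letters are not in this window.

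**Figure D1:**
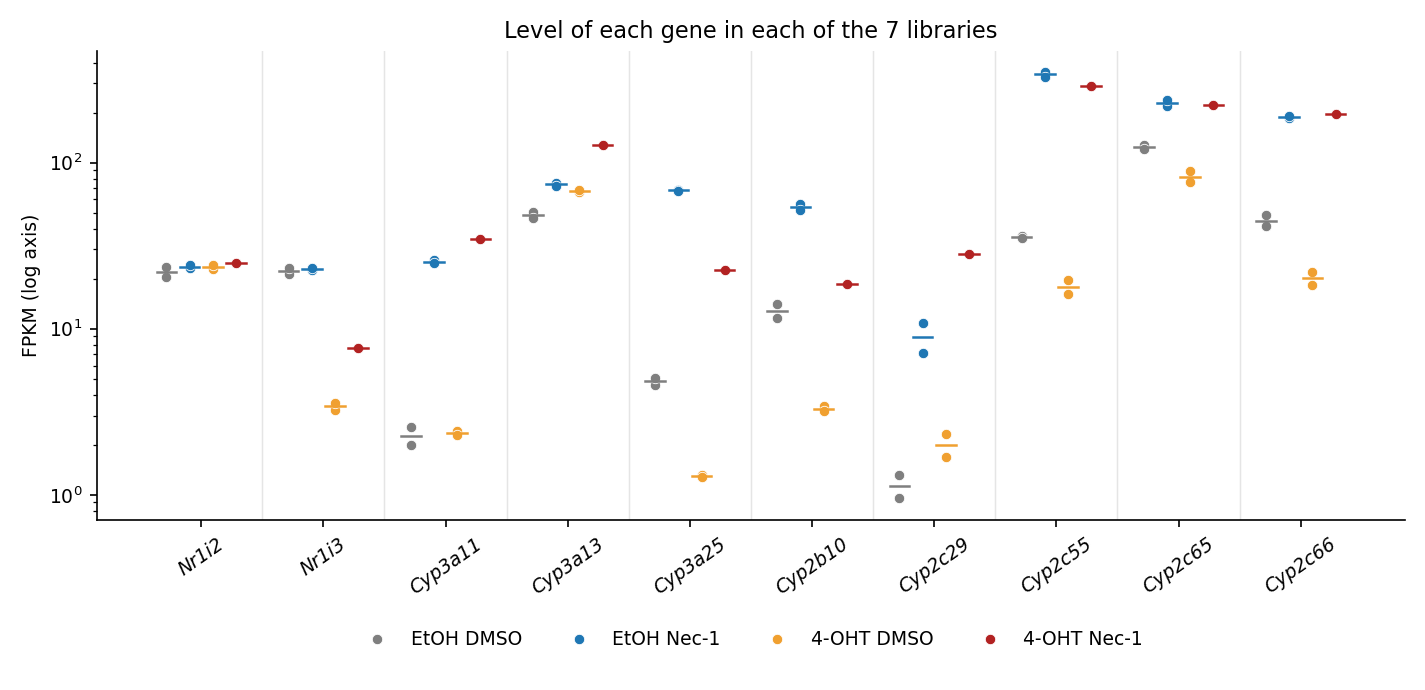
FPKM on a log axis of the 2 receptor genes and 8 P450 genes in each of the 7 libraries, 1 point a library, with a bar at the mean of each group (4-OHT Nec-1 is 1 library). *Nr1i2* stays between 20.5 and 24.7 FPKM, *Nr1i3* is at 3.26 to 7.68 in the libraries labelled 4-OHT and at 21.3 to 23.2 in the others, and *Cyp3a11* is at 1.99 to 2.55 without Nec-1 and 24.7 to 34.8 with it.

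Of the 2 receptors, CAR was lower in the libraries labelled 4-OHT, while PXR was at similar levels throughout. *Nr1i2* (ENSMUSG00000022809) was at 20.5 and 23.6 FPKM under EtOH DMSO, 23.2 and 24.0 under EtOH Nec-1, 22.8 and 24.0 under 4-OHT DMSO and 24.7 under 4-OHT Nec-1. All 7 libraries lay within a narrow range, and its groups overlapped in EtOH with and without Nec-1. The limma difference in log2(FPKM + 1) between 4-OHT DMSO and EtOH DMSO was 0.085, with a 95% confidence interval of -0.16 to 0.33 (Benjamini-Hochberg adjusted p = 0.512). Its sign turned to -0.072 when each library was centred on its median.

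*Nr1i3* (ENSMUSG00000005677) was at 21.3 and 23.1 FPKM under EtOH DMSO and 22.6 and 23.2 under EtOH Nec-1. In the libraries labelled 4-OHT it was at 3.26 and 3.59 with DMSO and at 7.68 with Nec-1. Every library labelled 4-OHT lay below every EtOH library. *Nr1i3* fell by 2.39 on the log2(FPKM + 1) scale in 4-OHT DMSO (SE 0.088, n = 2 and 2, limma with Benjamini-Hochberg adjustment, adjusted p = 0.000256), which is 6.50-fold in mean FPKM. In the presence of Nec-1 it fell by 1.46 (SE 0.11, limma with Benjamini-Hochberg adjustment, adjusted p = 0.00336), or 2.98-fold. The comparison with Nec-1 has 1 library labelled 4-OHT, and limma takes its spread to be that of the groups with 2. Nec-1 left the level in EtOH within the spread of the libraries, and the 4-OHT Nec-1 library was 2.24-fold above the mean of 4-OHT DMSO. Whether these effects of Nec-1 differ was not tested.

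The 8 P450 genes together were at 284 and 263 FPKM under EtOH DMSO, 990 and 980 under EtOH Nec-1, 187 and 207 under 4-OHT DMSO and 941 under 4-OHT Nec-1. The sum was thus 3.60-fold higher with Nec-1 in EtOH and 4.78-fold higher in 4-OHT, as the choice of genes brings with it. Their share of all FPKM was 0.0584% to 0.0597% in EtOH DMSO and 0.199% to 0.200% in EtOH Nec-1. The make-up of the sum differed as well. In EtOH DMSO, *Cyp2c65* made up 45.0% and 45.8% of it and *Cyp2c55* 12.6% and 13.4%. With Nec-1, *Cyp2c55* was the most abundant, at 35.4% and 33.6% in EtOH and 30.9% in 4-OHT. In 4-OHT DMSO, *Cyp2c65* (40.7% and 42.8%) and *Cyp3a13* (35.8% and 33.0%) held most of it.

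**Figure D2:**
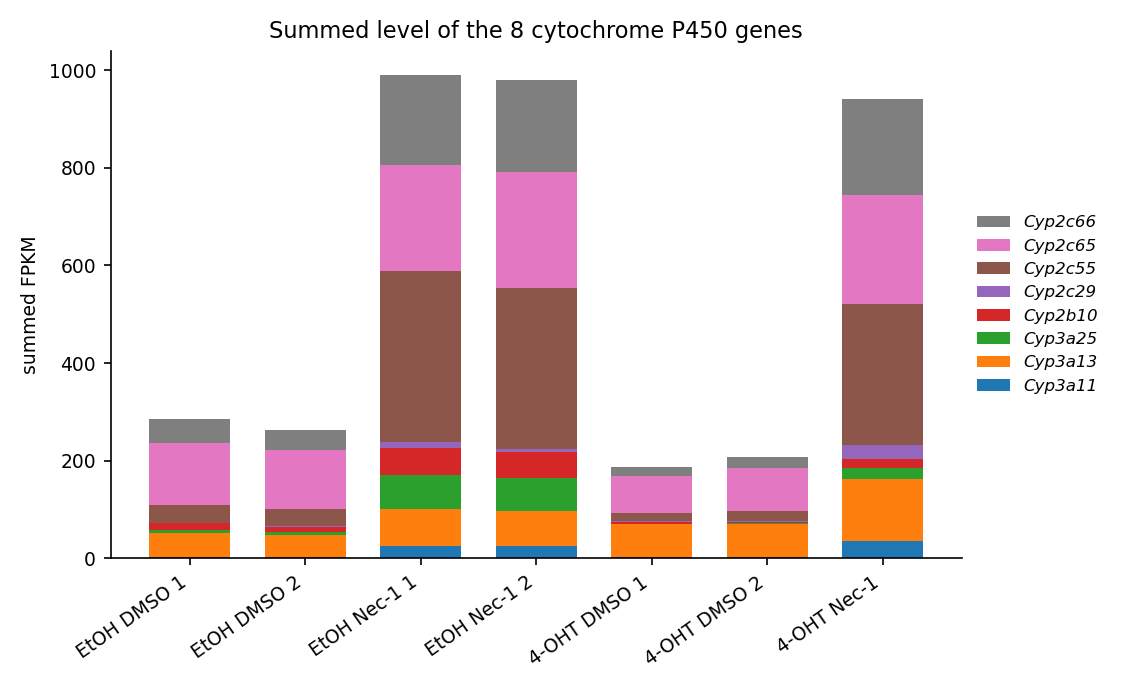
Summed FPKM of the 8 P450 genes in each library, with 1 bar a library and 1 colour a gene. The bars reach 263 to 284 under EtOH DMSO, 187 to 207 under 4-OHT DMSO and 941 to 990 with Nec-1, where *Cyp2c55* is the widest band.

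Among the Cyp3a genes, whose enzymes oxidise a wide range of drugs and steroids, *Cyp3a11* (ENSMUSG00000056035) was at 2.55 and 1.99 FPKM under EtOH DMSO and 25.9 and 24.7 under EtOH Nec-1. It was at 2.43 and 2.30 under 4-OHT DMSO and 34.8 under 4-OHT Nec-1. The levels without Nec-1 overlapped between EtOH and 4-OHT, and those with Nec-1 were 11.1-fold and 14.7-fold higher than in the matching DMSO group. Between 4-OHT DMSO and EtOH DMSO the difference was 0.048 on the log2(FPKM + 1) scale (95% confidence interval -0.23 to 0.33, limma with Benjamini-Hochberg adjustment, adjusted p = 0.759), with -0.11 after median centring. With Nec-1 in both groups it was 0.45 (95% confidence interval 0.11 to 0.79, limma with Benjamini-Hochberg adjustment, adjusted p = 0.0715). That value passed the threshold in a fit of the 3 libraries of the comparison alone (limma adjusted p = 0.0221).

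*Cyp3a25* (ENSMUSG00000029630) was at 4.57 and 5.05 FPKM under EtOH DMSO, 68.8 and 67.9 under EtOH Nec-1, 1.32 and 1.29 under 4-OHT DMSO and 22.6 under 4-OHT Nec-1. No groups overlapped, and the 4-OHT libraries lay below their EtOH counterparts with and without Nec-1. The gene fell by 1.33 in 4-OHT DMSO (SE 0.084, limma with Benjamini-Hochberg adjustment, adjusted p = 0.000522) and by 1.55 with Nec-1 in both groups (SE 0.10, adjusted p = 0.00306). With Nec-1 its mean FPKM was 14.2-fold higher in EtOH and 17.3-fold higher in 4-OHT. *Cyp3a13* (ENSMUSG00000029727) was the most abundant Cyp3a gene in all 7 libraries. It was at 50.1 and 46.2 FPKM under EtOH DMSO, 75.5 and 72.6 under EtOH Nec-1, 66.8 and 68.3 under 4-OHT DMSO and 127 under 4-OHT Nec-1. In contrast to *Cyp3a25* it was higher in both 4-OHT comparisons. It rose by 0.48 without Nec-1 (SE 0.079, limma with Benjamini-Hochberg adjustment, adjusted p = 0.00701) and by 0.77 with it (SE 0.096, adjusted p = 0.00783). The second call was lost without either EtOH Nec-1 library (limma adjusted p = 0.0558 and 0.0620). Nec-1 was accompanied by 1.54-fold and 1.88-fold higher levels, the smallest ratios among the P450 genes.

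*Cyp2b10* (ENSMUSG00000030483), the gene by which CAR activity is usually followed, was at 14.0 and 11.5 FPKM under EtOH DMSO, 56.3 and 52.0 under EtOH Nec-1, 3.40 and 3.18 under 4-OHT DMSO and 18.6 under 4-OHT Nec-1. Without Nec-1 the 4-OHT libraries lay below those of EtOH, and the same order was seen with Nec-1. It fell by 1.68 in 4-OHT DMSO (SE 0.11, limma with Benjamini-Hochberg adjustment, adjusted p = 0.000641) and by 1.49 with Nec-1 in both groups (SE 0.14, adjusted p = 0.00476). With Nec-1 its level was 4.24-fold higher in EtOH and 5.64-fold higher in 4-OHT.

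The Cyp2c enzymes of the chromosome 19 cluster oxidise drugs and polyunsaturated fatty acids. *Cyp2c55* (ENSMUSG00000025002) was at 35.9 and 35.1 FPKM under EtOH DMSO, 350.4 and 329 under EtOH Nec-1, 16.2 and 19.5 under 4-OHT DMSO and 290.4 under 4-OHT Nec-1. With Nec-1 it was 9.57-fold higher in EtOH and 16.3-fold higher in 4-OHT, and it had the highest level of the 10 genes in all 3 libraries with Nec-1. It fell by 0.96 in 4-OHT DMSO (SE 0.11, limma with Benjamini-Hochberg adjustment, adjusted p = 0.00221). With Nec-1 in both groups the difference was -0.23 (95% confidence interval -0.55 to 0.10, limma with Benjamini-Hochberg adjustment, adjusted p = 0.264).

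*Cyp2c65* (ENSMUSG00000067231) was at 128 and 120.3 FPKM under EtOH DMSO, 218 and 238 under EtOH Nec-1, 76.0 and 88.7 under 4-OHT DMSO and 223 under 4-OHT Nec-1. Its paralog *Cyp2c66* (ENSMUSG00000067229) was at 48.2 and 41.3, 184 and 189, 18.3 and 22.0, and 196 FPKM in the same order. Both were lowest in 4-OHT DMSO, and over the 7 libraries their log2(FPKM + 1) correlated with r = 0.996. This r describes libraries that share groups and does not compare the size of the changes. *Cyp2c65* fell by 0.59 in 4-OHT DMSO (SE 0.11, limma with Benjamini-Hochberg adjustment, adjusted p = 0.00935) and *Cyp2c66* by 1.11 (SE 0.12, adjusted p = 0.00217). With Nec-1 in both groups the differences were -0.029 (95% confidence interval -0.35 to 0.30) and 0.068 (95% confidence interval -0.31 to 0.44), with adjusted p of 0.896 and 0.773 by limma with Benjamini-Hochberg adjustment. The level of *Cyp2c65* with Nec-1 was 1.84-fold higher in EtOH and 2.71-fold higher in 4-OHT, and that of *Cyp2c66* was 4.18-fold and 9.71-fold higher.

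*Cyp2c29* (ENSMUSG00000003053) had the lowest level of the 10 genes in EtOH with and without Nec-1. It was at 0.953 and 1.32 FPKM under EtOH DMSO, 10.8 and 7.10 under EtOH Nec-1, 2.32 and 1.69 under 4-OHT DMSO and 28.3 under 4-OHT Nec-1. Unlike its cluster neighbours it was higher in each library labelled 4-OHT than in the matching EtOH libraries. It rose by 1.58 with Nec-1 in both groups (SE 0.27, limma with Benjamini-Hochberg adjustment, adjusted p = 0.0165), a call lost without the second EtOH Nec-1 library (adjusted p = 0.0598) or without the filter on low values (adjusted p = 0.0569). Without Nec-1 the difference was 0.49 (95% confidence interval -0.057 to 1.04, limma adjusted p = 0.127). At such low levels the pseudocount of 1 shrinks the log2 difference relative to the ratio of the FPKM.

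Over the 10 genes, in 4-OHT DMSO against EtOH DMSO, 6 were lower (*Nr1i3*, *Cyp3a25*, *Cyp2b10*, *Cyp2c55*, *Cyp2c65* and *Cyp2c66*), 1 was higher (*Cyp3a13*) and 3 did not pass the threshold by limma. Among all 12702 genes tested, 16.7% were called lower and 24.5% higher. The median difference of the 10 genes was -0.77 and that of all genes 0.077. The split of all calls depends on the scaling, since 59.5% of 5237 calls were higher as deposited and 41.0% of 5400 calls were higher with each library centred on its median, which put the median of all genes at -0.080. The 7 calls among the 10 genes kept their direction and threshold with this centring, with upper quartile scaling and when any 1 library was left out. With Nec-1 in both groups, 3 genes were lower (*Nr1i3*, *Cyp3a25* and *Cyp2b10*), 2 were higher (*Cyp3a13* and *Cyp2c29*) and 5 were not called, compared with 7.16% of all genes lower and 13.9% higher. Here 66.1% of 2681 calls were higher as deposited and 45.9% of 2756 after centring. The median of the 10 genes was 0.018 and that of all genes 0.076. Without the first EtOH Nec-1 library 4 of the 10 were called, and without the second 3, namely *Nr1i3*, *Cyp3a25* and *Cyp2b10*. The libraries of these comparisons are also those of the Nec-1 comparisons by which the genes were chosen, so the tests are not independent of that choice.

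**Figure D3:**
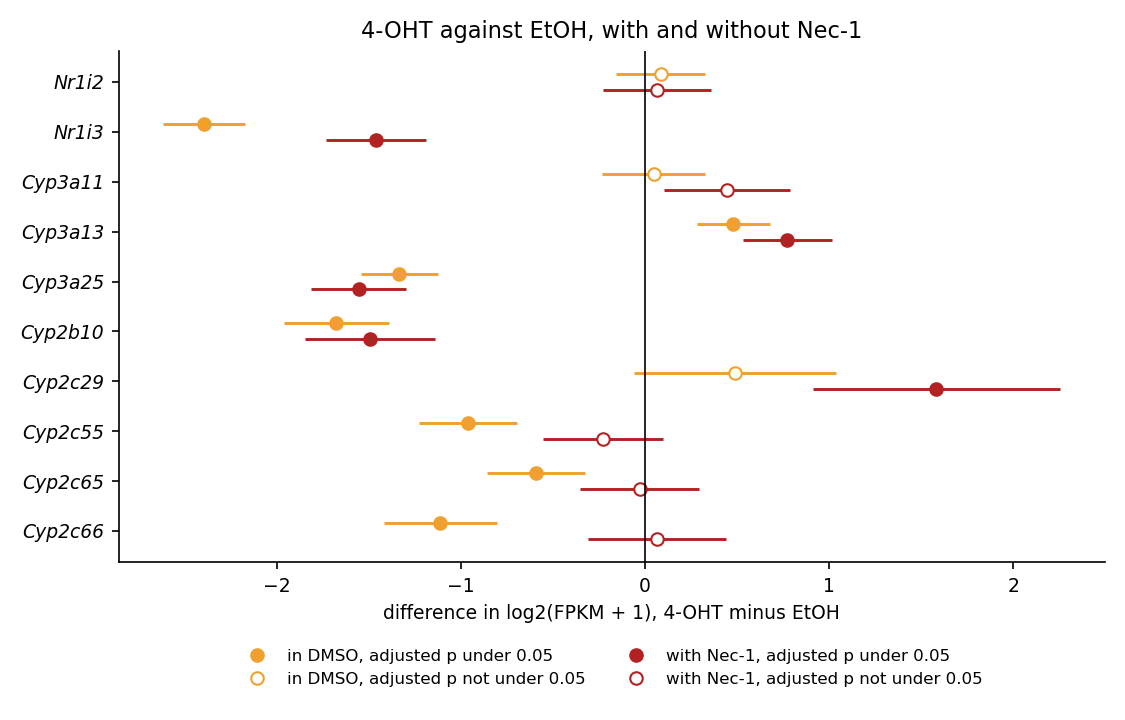
Difference in log2(FPKM + 1) between organoids labelled 4-OHT and EtOH for each of the 10 genes, with DMSO (orange) and with Nec-1 (red), as points with 95% confidence intervals from limma; filled points have an adjusted p under 0.05. *Nr1i3*, *Cyp3a25* and *Cyp2b10* lie below 0 in both comparisons, *Cyp3a13* lies above 0 in both, and *Cyp2c55*, *Cyp2c65* and *Cyp2c66* are called lower with DMSO and not called with Nec-1, a contrast between the comparisons that was not tested.

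Cell type markers moved with these comparisons. The 20 enterocyte markers summed to 3298 and 3068 FPKM under EtOH DMSO and to 1625 and 1706 under 4-OHT DMSO. Of the 19 that passed the filter, 14 were lower in every pairing of libraries while 4 were higher. Their median difference was -0.54, and that of all genes was 0.077. Markers of Paneth cells, goblet cells and enteroendocrine cells were higher in 7 of 7, 7 of 7 and 7 of 7, with medians of 1.15, 1.10 and 1.03 on the log2 scale. With Nec-1, the enterocyte sum was 2780 and 2558 in EtOH and 1901 in 4-OHT. By limma, 16.7% of all genes were called lower and 24.5% higher in 4-OHT DMSO. The share of all genes separated by any amount in every pairing was not computed for any comparison. The marker counts of this paragraph are thus a description without a background. The part of cell composition in the 4-OHT differences was not tested. In EtOH organoids the enterocyte sum was lower with Nec-1 (list median -0.18, 9 markers lower and 4 higher in every pairing). The median of all genes was -0.094 in that comparison. There 7 of the 7 stem cell markers that passed the filter were lower in every pairing (median -0.40, summed FPKM 80.03 and 79.4 against 60.7 and 60.3), and 6 of 7 Paneth cell markers were higher (median 0.23). In 4-OHT organoids, with 1 Nec-1 library, the enterocyte sum was higher with Nec-1 (list median 0.24, 10 markers higher and 7 lower in every pairing). Unlike in EtOH, 6 of 7 Paneth cell markers were lower there and 1 was higher (median -0.17). Of the stem cell markers 5 were lower and 0 higher (median -0.20). Of the goblet cell markers 5 were lower and 1 was higher (median -0.29). The median of all genes was -0.089 in that comparison. The part of cell composition in the Nec-1 differences was not tested either. Hepatocyte markers summed to 16.2 to 24.9 FPKM in all libraries.

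Against EtOH DMSO, 6 of the 10 genes lay at least 1 log2 unit higher in every pairing of EtOH Nec-1 libraries, where 0.346% of all genes did and 0.142% lay that far below. These values chose the genes and carry no test. The lowest of the 6 by their smallest pairing was *Cyp2c29* at 1.81, and the nearest below the limit was *Cyp2c65* at 0.77. Both receptors overlapped between these groups. In 4-OHT organoids, 7 lay at least 1 unit above both DMSO libraries, with 0.764% of all genes above and 1.21% below. *Nr1i3* was the nearest outside, at 0.92 in its smaller pairing, and *Cyp2c65* the nearest inside, at 1.32. The count was 8 with pseudocounts of 0.1 and 0.25 and 9 with median centring and upper quartile scaling. Median differences were 2.03 in EtOH and 2.71 in 4-OHT, next to -0.094 and -0.089 for all genes. By level, the order of the P450 genes without Nec-1 in EtOH was *Cyp2c65*, *Cyp3a13*, *Cyp2c66*, *Cyp2c55*, *Cyp2b10*, *Cyp3a25*, *Cyp3a11* and *Cyp2c29*, where the libraries of *Cyp3a13* (46.2 and 50.1 FPKM) and *Cyp2c66* (41.3 and 48.2) overlapped. With Nec-1 in EtOH it was *Cyp2c55*, *Cyp2c65*, *Cyp2c66*, *Cyp3a13*, *Cyp3a25*, *Cyp2b10*, *Cyp3a11* and *Cyp2c29*, with no overlap between neighbours.

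Genes of the surrounding pathway were taken from 6 lists that hold none of the 10. The lists were chosen with earlier results of these data known. Their calls are therefore not independent of those results, also in EtOH Nec-1 against EtOH DMSO, the comparison used to choose the 10. Of 21 partners and regulators of the receptors that were tested, 3 rose and 4 fell in 4-OHT DMSO. There 24.5% of all genes were called higher and 16.7% lower, so the list did not stand out from all genes. None of the 21 was called in EtOH Nec-1 against EtOH DMSO. In that comparison 0.173% of all genes were called higher and 0.0472% lower by limma (28 genes, with 1689 at an unadjusted p under 0.05). *Hsp90aa1*, a chaperone that holds CAR in the cytoplasm, was at 64.5 and 65.4 FPKM under EtOH DMSO and 132 and 109 under 4-OHT DMSO and rose by 0.87 (limma with Benjamini-Hochberg adjustment, adjusted p = 0.00317). *Vdr*, the vitamin D receptor, fell by 0.87 and *Nr3c1*, the glucocorticoid receptor, by 0.84 (limma adjusted p = 0.00215 and 0.0163). The retinoid X receptor gene *Rxrb* fell by 0.49 (limma adjusted p = 0.0226). The calls of *Nr3c1* and *Rxrb* were lost without the filter on low values (limma adjusted p = 0.0623 and 0.0586), and that of *Rxrb* also without either EtOH DMSO library or the first 4-OHT DMSO library (0.0600 to 0.0913). *Rxra*, named here for its role although it falls outside the rule for named genes, was at 12.8 to 18.7 FPKM in all libraries and was not called (limma adjusted p = 0.0809). *Nr1h4* (FXR, a bile acid receptor) and *Nfe2l2* (NRF2, a regulator of antioxidant genes) rose by 0.39 and 0.34, calls that were lost with median centring (limma adjusted p = 0.121 and 0.156). Between the Nec-1 groups 3 rose and none fell, namely *Nfe2l2*, *Ahr* and *Nr0b2*, by 0.74, 0.50 and 0.89, and the calls of *Ahr* and *Nr0b2* were lost with median centring (limma adjusted p = 0.0652 and 0.0594). All 3 calls were lost without either EtOH Nec-1 library. Between these groups 13.9% of all genes were called higher, near the share of this list. *Nr0b2* reached 1 FPKM only in libraries labelled 4-OHT (1.02 with DMSO and 1.28 with Nec-1). It was at 0.258 and 0.196 under EtOH Nec-1, so it passed the filter through the label in which it was called higher.

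P450 enzymes depend on partners that supply electrons and haem. The list of these genes also holds *Hmox1*, whose enzyme breaks down haem, and *Blvrb*, whose enzyme reduces biliverdin. Its counts are thus not those of supplying partners alone. Of its 16 genes tested, 9 fell and none rose in 4-OHT DMSO, with a list median of -0.32. Among all genes 16.7% fell and 24.5% rose. With Nec-1 in both groups 2 of the 16 fell, where 7.16% of all genes did. *Cyb5a*, which encodes cytochrome b5, was at 115 and 99.8 FPKM under EtOH DMSO, 262 and 258 under EtOH Nec-1, 58.1 and 76.4 under 4-OHT DMSO and 222 under 4-OHT Nec-1. Its levels with Nec-1 lay above all those without, and it fell by 0.68 in 4-OHT DMSO (limma with Benjamini-Hochberg adjustment, adjusted p = 0.0180). That call was lost without the filter on low values and without the first EtOH DMSO library (limma adjusted p = 0.0644 and 0.0877). *Cyb5r3*, the reductase of cytochrome b5, fell by 0.94 under 4-OHT DMSO and by 0.78 with Nec-1 in both groups (limma adjusted p = 0.00143 and 0.00967). *Blvrb*, a biliverdin reductase, fell by 1.09 in 4-OHT DMSO (limma adjusted p = 0.00866), and *Cpox*, an enzyme of haem synthesis, fell by 0.52 with Nec-1 in both groups (limma adjusted p = 0.0208). Without the first EtOH DMSO library the call of *Blvrb* was lost (limma adjusted p = 0.0524). With Nec-1 in both groups, the calls of *Cyb5r3* and *Cpox* were lost without either EtOH Nec-1 library (limma adjusted p = 0.0569 and 0.0680 for *Cyb5r3*, 0.0915 and 0.114 for *Cpox*), and that of *Cpox* also with the replicate number as a block (0.0573). In EtOH Nec-1 none of the 16 was called. In 4-OHT Nec-1 *Cyb5a* alone lay at least 1 log2 unit above both DMSO libraries, as 0.764% of all genes did.

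The list of conjugating and related enzymes had the most genes tested. It also holds hydrolases and oxidoreductases that do not conjugate, such as carboxylesterases and aldehyde dehydrogenases. Its counts are thus not those of conjugating enzymes alone. Of 33 tested, 24 fell and 1 rose in 4-OHT DMSO (median -0.996), and 14 fell and 3 rose with Nec-1 in both groups (median -0.49). Among all genes 16.7% fell and 24.5% rose in the first comparison, and 7.16% fell and 13.9% rose in the second. In EtOH Nec-1, 5 rose and none fell (median 0.69), where 0.173% of all genes rose. In 4-OHT Nec-1, 17 lay at least 1 log2 unit above both DMSO libraries and none below (median 1.22). Of all genes 0.764% lay that far above and 1.21% below. *Ces2a*, a carboxylesterase, was at 89.5 and 92.2 FPKM under EtOH DMSO, 531 and 542 under EtOH Nec-1, 55.2 and 39.1 under 4-OHT DMSO and 448 under 4-OHT Nec-1. It rose by 2.55 in EtOH Nec-1 (SE 0.16, limma with Benjamini-Hochberg adjustment, adjusted p = 0.00788). The glutathione transferase genes *Gstm3* and *Gsta1* rose by 1.71 and 1.37 there (limma adjusted p = 0.0463 and 0.0168). Each of these 3 calls was lost when any EtOH library was left out and without the filter on low values. *Ces1d*, another carboxylesterase, was at 70.2 and 65.3 FPKM under EtOH DMSO and 0.891 and 1.74 under 4-OHT DMSO, and fell by 4.92 (limma adjusted p = 0.000256). *Ugt2b5*, a glucuronosyltransferase, and *Aldh1a7*, an aldehyde dehydrogenase, each fell by 2.85 (limma adjusted p = 0.000482 and 0.000256). *Aldh1b1* rose by 0.42 (limma adjusted p = 0.0113), a call lost with median centring (limma adjusted p = 0.0599). Between the Nec-1 groups *Ces1d* fell by 3.51, the sulfotransferase gene *Sult1b1* fell by 2.46 and *Ugt2b5* fell by 2.27 (limma adjusted p = 0.00272, 0.00272 and 0.00466). The Ces2, Gsta, Gstm and Ugt2b genes have close paralogs, with the same limit on their values as the Cyp2c genes.

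Among 10 drug transporters tested, 2 rose and 4 fell in 4-OHT DMSO, where 24.5% of all genes rose and 16.7% fell. With Nec-1 in both groups 2 rose and 1 fell, where 13.9% of all genes rose and 7.16% fell. *Slc15a1*, which rose in 4-OHT DMSO, reached 1 FPKM only in libraries labelled 4-OHT. *Abcc2*, an export pump of conjugates, was at 26.6 and 33.8 FPKM under EtOH DMSO, 54.1 and 54.0 under EtOH Nec-1, 18.1 and 18.5 under 4-OHT DMSO and 81.7 under 4-OHT Nec-1. *Abcb1a*, which encodes P-glycoprotein, was at 24.2 and 29.97, 66.1 and 60.3, 33.1 and 25.6, and 92.0 FPKM in the same order. Both lay at least 1 log2 unit above both DMSO libraries in 4-OHT Nec-1, and none of the 10 was called in EtOH Nec-1. *Abcc2* fell by 0.68 under 4-OHT DMSO, and *Slco2b1*, an uptake carrier, by 1.92 (limma with Benjamini-Hochberg adjustment, adjusted p = 0.00918 and 0.000354). With Nec-1 in both groups *Abcc2* was called in the other direction, at 0.59 (limma adjusted p = 0.0462), a call lost with median centring (0.0660), with the replicate number as a block (0.0597) and without either EtOH Nec-1 library (0.158 and 0.159). *Abcc4*, another export pump, rose by 1.01 in 4-OHT DMSO and by 1.07 with Nec-1 in both groups (limma adjusted p = 0.00641 and 0.0195). The second call was lost without the filter on low values (limma adjusted p = 0.0595) and without either EtOH Nec-1 library (0.0793 and 0.0932).

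In 12 other genes known to respond to CAR or PXR, 1 rose and 6 fell in 4-OHT DMSO. Of all genes 24.5% rose and 16.7% fell there. With Nec-1 in both groups 1 rose and 5 fell, where 13.9% of all genes rose and 7.16% fell. *G6pc*, which fell in 4-OHT DMSO, reached 1 FPKM only under EtOH DMSO. *Scd1*, a fatty acid desaturase, was at 62.9 and 61.0 FPKM under EtOH DMSO, 165 and 157 under EtOH Nec-1, 39.9 and 37.7 under 4-OHT DMSO and 94.3 under 4-OHT Nec-1. It was the 1 gene of this list called in EtOH Nec-1, where it rose by 1.36 (SE 0.077, limma with Benjamini-Hochberg adjustment, adjusted p = 0.00578), a call lost when any EtOH library was left out. *Insig1*, a regulator of sterol synthesis, fell by 1.11 in 4-OHT DMSO (limma adjusted p = 0.000851) and *Mdm2*, the ubiquitin ligase of p53, rose by 0.65 (limma adjusted p = 0.00591).

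Of 72 other Cyp2 and Cyp3 genes, 23 were listed at 0 in every library and 11 were tested. In 4-OHT DMSO 7 of the 11 fell and 1 rose, with a median of -0.87, where 16.7% of all genes fell and 24.5% rose. *Cyp2c68*, another gene of the chromosome 19 cluster, was at 22.6 and 21.0 FPKM under EtOH DMSO and 41.0 and 40.6 under EtOH Nec-1. It was at 6.63 and 3.88 under 4-OHT DMSO and 15.1 under 4-OHT Nec-1. Its 4-OHT Nec-1 level lay below EtOH DMSO. It fell by 1.90 in 4-OHT DMSO (limma with Benjamini-Hochberg adjustment, adjusted p = 0.00219) and by 1.38 with Nec-1 in both groups (adjusted p = 0.0206). The second call was lost without the filter on low values (limma adjusted p = 0.0700) and without either EtOH Nec-1 library (0.0916 and 0.0896). In 4-OHT DMSO *Cyp2d22* fell by 1.50 and *Cyp2w1* fell by 1.56 (limma adjusted p = 0.00200 and 0.00194). *Cyp2w1* was at 2.56 and 1.84 FPKM under EtOH DMSO and at 0.164 and 0 under 4-OHT DMSO. It and *Cyp2c70*, which also fell, reached 1 FPKM only in EtOH libraries, so both passed the filter through the label in which they were higher. *Cyp2e1*, an enzyme of ethanol oxidation, was the 1 that rose, by 1.24 (limma adjusted p = 0.00883), a call lost without the first EtOH DMSO library (0.0519). In EtOH Nec-1 none of the 11 was called.

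**Figure D4:**
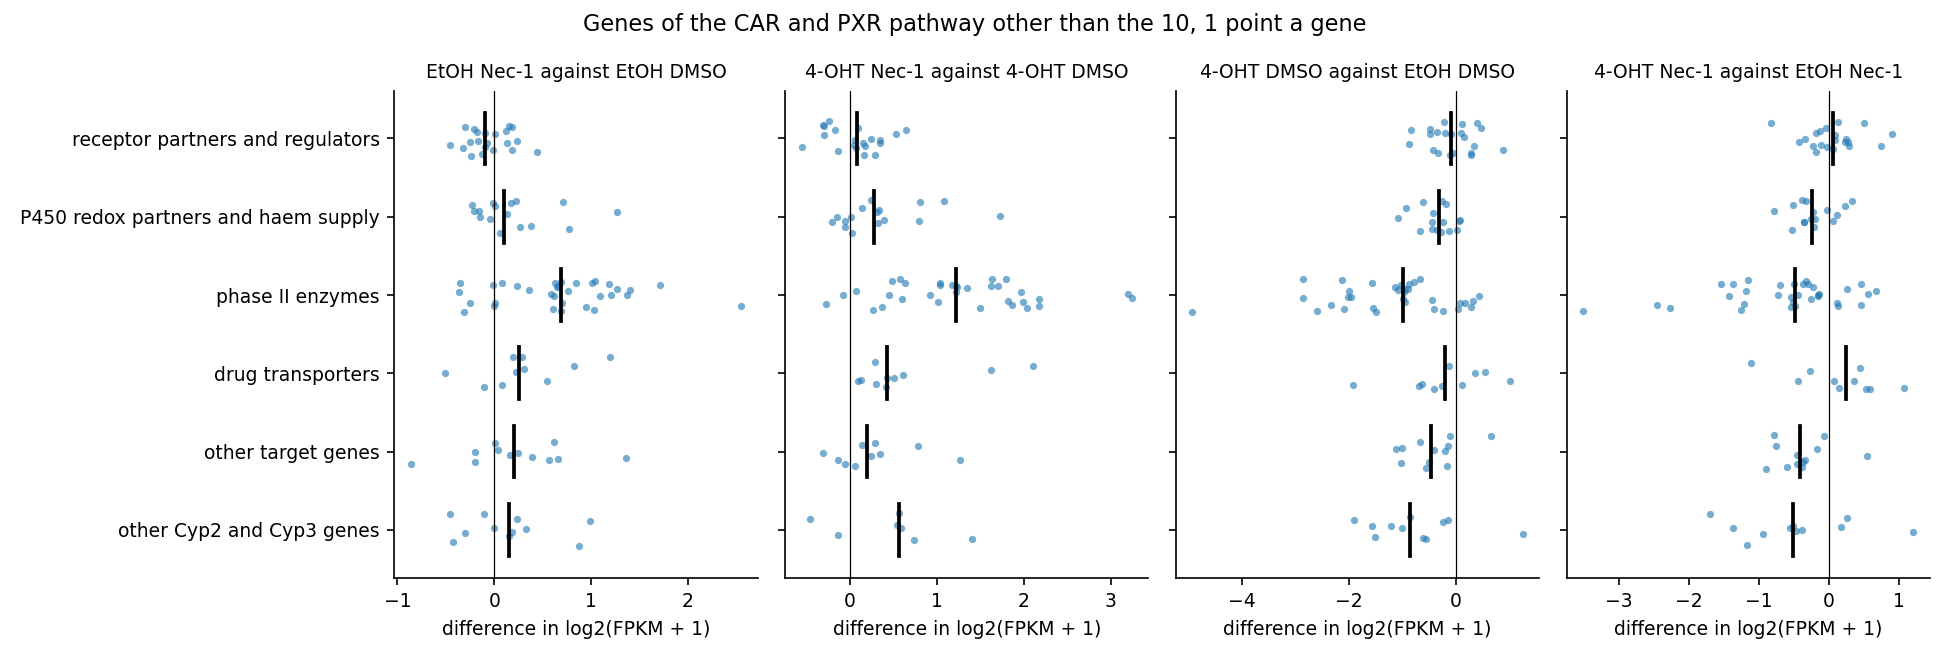
Differences in log2(FPKM + 1) of the tested genes of 6 pathway lists in the 4 comparisons, 1 point a gene, with a black bar at the list median (points are spread vertically for legibility only; the comparison of 4-OHT Nec-1 with 4-OHT DMSO takes genes averaging 1 FPKM or more over its 3 libraries). The list drawn as phase II enzymes, which also holds hydrolases and oxidoreductases, has medians of 0.69 and 1.22 with Nec-1. With 4-OHT its medians are -0.996 and -0.49. Medians of the receptor partners stay at -0.093 to 0.076.

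The genes with the most similar pattern over the 7 libraries were found by Pearson's r of log2(FPKM + 1) among genes that ranged over at least 1 log2 unit. The libraries share groups and treatments, so r is a description. Nearest to *Cyp3a11* were *Pet117* (r = 0.999), *Cyp1a1* (0.996), *Gsta4* (0.994), *Gsta1* (0.989) and *Gm10639* (0.975). *Pet117* did not exceed 0.00458 FPKM without Nec-1 and was at 10.8 and 11.1 under EtOH Nec-1 and 15.1 under 4-OHT Nec-1. Its r thus rests on values at the floor in every library without Nec-1. *Cyp1a1*, the classic target of the aryl hydrocarbon receptor, was at 57.4 and 56.0 FPKM under EtOH Nec-1 and 169.8 under 4-OHT Nec-1 and did not exceed 0.322 without Nec-1. Nearest to *Cyp3a25* were *Scd1* (0.995), *Osbpl9* (0.987), *Pgrmc1* (0.984), *S100g* (0.978) and *Ces2a* (0.978). *S100g*, the vitamin D-regulated calcium carrier calbindin-D9k, was at 75.9 and 70.7 FPKM under EtOH DMSO, 308 and 348 under EtOH Nec-1, 27.8 and 53.5 under 4-OHT DMSO and 172 under 4-OHT Nec-1. Nearest to *Cyp2c55* were *Ces2a* (0.991), *Pgrmc1* (0.985), *Cyb5a* (0.985), *Osbpl9* (0.981) and *Tmem86b* (0.978). *Pgrmc1* encodes a haem-binding partner of P450 enzymes and was at 101 to 115 FPKM under EtOH DMSO, 181 to 188 under EtOH Nec-1, 88.8 to 92.4 under 4-OHT DMSO and 159 under 4-OHT Nec-1. Within the 10 genes, *Nr1i3* had r of 0.80 with *Cyp2b10*, 0.64 with *Cyp3a25* and -0.34 with *Cyp3a13*, and *Nr1i2* had r between 0.087 and 0.61 with the P450 genes.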

How the data were processed

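RNA-seq of organoids gave 7 libraries in 4 groups, and 2 *Atf3* ChIP samples were not analysed here. The submitters' processing notes name HISAT2 2.1.0, StringTie 1.3.3b and the build mm10. The authors deposited FPKM per Ensembl gene. One table repeated 2 columns of the others to within rounding, 0 columns were unmapped, and 54723 identifiers matched a symbol. Depth is unknown, so no counting error is given.

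The values were computed with limma 3.58.1 in R 4.3.3, with pandas 2.3.3 and numpy 2.4.6 in Python 3.11.15, and drawn with matplotlib 3.10.9. limma with a mean-variance trend was fitted to log2(FPKM + 1) of all 7 libraries, with 1 mean per group, over the 12702 genes that reached 1 FPKM in 2 or more libraries, with Benjamini-Hochberg adjustment over all of them, a threshold of 0.05 and 3 residual degrees of freedom. In 4-OHT Nec-1 against 4-OHT DMSO, the 12036 genes averaging 1 FPKM or more over the 3 libraries were described without a test. The fit was tested on simulated data.

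The 10 genes and the pathway lists were chosen with earlier results of these data known. Named genes are the 10, *Mettl3*, up to 3 rises and 3 falls per list and comparison that were called and went the same way in every pairing, and the 5 genes most like *Cyp3a11*, *Cyp3a25* and *Cyp2c55*. Promoters came from RefSeq (GRCm38.p6). Alternatives were other filters, pseudocounts and scalings, limma without the trend, only the libraries compared, a replicate block and leaving out each library.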

Additional observations from a re-analysis of the deposited data

Results flagged for a closer look

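For *Cyp2c66*, the libraries labelled 4-OHT lay on opposite sides of the EtOH libraries in the absence and in the presence of Nec-1. Its difference in log2(FPKM + 1) was -1.11 between 4-OHT DMSO and EtOH DMSO, with both 4-OHT libraries (18.3 and 22.0 FPKM) below both EtOH libraries (48.2 and 41.3). With Nec-1 it was 0.068, with the 4-OHT library (196 FPKM) above both EtOH libraries (184 and 189). The second difference did not pass the threshold and turned to -0.074 with each library centred on its median and -0.070 with upper quartile scaling, so no rise was shown. The change between the comparisons was not tested.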

How the results depend on the processing

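Fragment counts are unknown, each group has at most 2 libraries, and the 4-OHT Nec-1 group has 1, so small differences could not be resolved. The labels of different groups have only a replicate number in common. Between the groups with 2 libraries, deviations of same-numbered libraries correlated over 12702 genes with r of -0.040, 0.0065 and -0.012. Whether same-numbered libraries came from 1 culture or 1 day is not known. With the replicate number as a block, 4-OHT DMSO against EtOH DMSO gave 4697 calls with 7 among the 10 genes, EtOH Nec-1 against EtOH DMSO 19, and 4-OHT Nec-1 against EtOH Nec-1 1617 in place of 2681, with 5 among the 10. *Gstm3* and *Gsta1* lost their calls in EtOH Nec-1 under the block (limma adjusted p = 0.0948 and 0.0672).

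Leaving out 1 library at a time gave 443 to 3079 calls for 4-OHT Nec-1 against EtOH Nec-1 (555 without EtOH Nec-1 replicate 1, 443 without replicate 2), with 3 to 6 among the 10 genes, and 3650 to 5239 calls for 4-OHT DMSO against EtOH DMSO, with 7 among the 10 each time. For EtOH Nec-1 against EtOH DMSO it gave 9 to 79 calls in place of 28, namely 9 to 14 without an EtOH library and 79 without either 4-OHT DMSO library. That count was 8 with no filter, 43 with upper quartile scaling and 87 with only the 4 libraries compared. Genes at least 1 log2 unit above in EtOH Nec-1 numbered 71 with a pseudocount of 0.1 and 63 to 93 with a library left out (44 otherwise), and those below 49 and 37 with pseudocounts of 0.1 and 0.25 and 35 to 53 (18 otherwise). In 4-OHT Nec-1, 255 and 232 genes lay below with these pseudocounts and 241 to 526 without 1 library (146 otherwise), and 180 to 246 above (92 otherwise). With a library left out fewer pairings are compared, so these counts of genes above or below could only stay or rise. The median of the 10 genes was 2.12 and 2.13 in EtOH Nec-1 with median centring and upper quartile scaling and 1.91 to 2.11 without 1 library. In 4-OHT Nec-1 it was 2.87, 2.84, 2.82 and 2.81 with pseudocounts of 0.1 and 0.25, median centring and upper quartile scaling, and 2.65 to 2.66 without 1 library.

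Small uncalled differences changed sign. Median centring moves every gene of a comparison by the same amount. In 4-OHT DMSO against EtOH DMSO it took the median of all genes from 0.077 to -0.080. Why the libraries differ in scale was not tested. With median centring and upper quartile scaling, 4-OHT DMSO against EtOH DMSO gave -0.072 and -0.074 for *Nr1i2* and -0.11 and -0.068 for *Cyp3a11*, and 4-OHT Nec-1 against EtOH Nec-1 gave -0.077 and -0.069 for *Nr1i2* and -0.074 and -0.070 for *Cyp2c66*. Without EtOH DMSO replicate 1 and 2 in turn, *Nr1i2* was at -0.014 and 0.18 and *Cyp3a11* at 0.17 and -0.076 in 4-OHT DMSO. Without replicate 1, *Nr1i2* was at -0.0018 and *Nr1i3* at -0.013 in EtOH Nec-1. *Cyp2c65* was at 0.013 with the replicate block and at -0.089 and 0.031 without EtOH Nec-1 replicate 1 and 2 in 4-OHT Nec-1 against EtOH Nec-1. The call of *Cyp3a11* there was gained with only the libraries compared (limma adjusted p = 0.0221) and without either EtOH DMSO library (0.0457 and 0.0455). In the 2 comparisons of 4-OHT with EtOH, the other values of the 10 genes kept their direction and their side of the threshold, apart from the lost calls of *Cyp3a13* and *Cyp2c29* given above. Of the 10 genes, 7 to 9 lay at least 1 log2 unit above in 4-OHT Nec-1 over the settings tried, and 6 in EtOH Nec-1 in each. Neither count could fall when a library was left out. Of the values of other named genes, 420 kept their call and 53 lost it under other settings, and 265 kept and 81 lost it without 1 library.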
